A study of Mus musculus with 8 samples.

Results

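The genes of MHC class I antigen processing and presentation were followed in liver RNA of Mc1r LKO mice and their controls. The 10 members were taken by gene symbol: the class I heavy chains H2-K1 and H2-D1 and their light chain B2m, the peptide transporter and loading genes Tap1, Tap2 and Tapbp, the immunoproteasome subunits Psmb8, Psmb9 and Psmb10, and the regulator Nlrc5. The symbols were matched to the gene identifiers of the count tables, which list 55487 genes, and all 10 members were among the 13400 genes that passed the filter on low counts. Bulk RNA sequencing of whole liver compared 4 control mice (numbers 154, 159, 181 and 193) with 4 Mc1r LKO mice (numbers 141, 156, 157 and 182). All mice were male and were fed a cholesterol-rich Western diet for 12 weeks from 8 weeks of age. Control mice were Mc1r fl/fl without Cre. Mc1r LKO mice carried the same floxed Mc1r alleles together with 1 Alb Cre/+ transgene, in which the albumin promoter drives Cre in hepatocytes. Because only Mc1r LKO mice carried Cre, the presence of the transgene and the loss of Mc1r cannot be told apart. Mc1r itself, the melanocortin receptor gene that was deleted, had 0 counts in each of the 8 livers, so the genotype labels could not be checked by its level. A count of 0 allows up to 3 counts, which correspond to between 0.121 and 0.278 CPM (counts scaled to the size of the library).

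Nearly all cells show peptides of their own proteins at the surface on MHC class I molecules, where cytotoxic T cells and natural killer cells read them. The proteasome cuts proteins into peptides, the TAP transporter carries the peptides into the endoplasmic reticulum, and tapasin holds an empty class I molecule at the transporter until a well fitting peptide is bound. Interferon-gamma induces most genes of this pathway together, including Nlrc5, which drives transcription of class I genes, and the immunoproteasome subunits, which replace the constitutive catalytic subunits in newly built particles. Hepatocytes carry little class I at rest compared with the macrophages and endothelial cells of the liver sinusoids.

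Total counts per liver were between 10773151 and 24763375, and the lowest total was that of Control 159. Of the 10 members, the lowest count behind any value was 193 and the highest was 41339. Control 159 stood apart for this pathway, since each of the 10 members had its highest value of the 8 livers there, against 18.1% of all genes tested. For this reason the value without Control 159 is given beside the fold change of each member. The summed level of hepatocyte markers was 91070 CPM in Control 159, between 71363 and 82620 CPM in the other control livers and between 78861 and 102410 CPM in Mc1r LKO livers. The 8 mice were separate animals, so the p-values measure the spread between animals.

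No member passed the adjusted p threshold of 0.05, and neither did any other gene, so 0% of all genes tested were called (quasi-likelihood test in edgeR, p adjusted by Benjamini-Hochberg). The smallest adjusted p was 0.118 over all genes and 0.734 over the members. At an unadjusted p under 0.05, 901 genes passed, and DESeq2 called 17 genes at the adjusted threshold, of which 0 were members. With an unadjusted p under 0.05 and a log2 fold change of at least 0.25 in size, 2.66% of all genes were called lower and 2.64% higher in Mc1r LKO mice. Of the members, 1 (Tap1) was called lower by this rule and 0 were called higher. The group mean was lower in Mc1r LKO mice for 10 of 10 members, against 52.1% of all genes tested. The median log2 fold change was -0.26 over the members and -0.011 over all genes. The genotypes overlapped for every member, so 0 of 10 members lay lower in every Mc1r LKO liver than in every control liver, against 1.54% of all genes. Without Control 159 the mean was lower for 4 of 10 members, against 50.5% of the 13695 genes tested then, and the median over the members was 0.036. In that fit 1.84% of all genes and 0 members were called lower by the unadjusted rule, and the smallest adjusted p of a member was 0.821.

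The genes of the pathway lie close together. Of the 10 members, 7 are on chromosome 17, within 1352 kb of the mouse MHC, 2 (Psmb10 and Nlrc5) on chromosome 8 and 1 (B2m) on chromosome 2 (GRCm38). Psmb9, Tap1, Psmb8 and Tap2 follow each other in chr17:34181987-34216321, and the Psmb9 and Tap1 genes as annotated by Ensembl overlap by 212 bases on opposite strands. Since reads were counted by strand, this overlap does not share counts. RefSeq, used below for the promoters, places the starts of Psmb9 and Tap1 apart, with 225 bases between them. The annotations thus differ, and that window lies inside Psmb9 as Ensembl annotates it. Mc1r is also on chromosome 8, and 17.5 Mb separate it from Psmb10 and 28.9 Mb from Nlrc5. A promoter was found in RefSeq for 8 of the 10 members. Those of the class I chains and the shared promoter of Tap1 and Psmb9 are shown. They were chosen because these genes were measured as one group and carry some or all of the elements known for class I genes. Capitals mark matches on either strand to a kappa B core (GGGATTCCC), an IRF element core (AANNGAAA), a CRE motif (TGACG) and a CCAAT box (CCAAT). The windows hold the 250 bases before the start of H2-K1 (chr17:34000348-34000597, minus strand), H2-D1 (chr17:35262844-35263093, plus strand) and B2m (chr2:122147437-122147686, plus strand), and the 225 bases between the starts of Psmb9 and Tap1 (chr17:34187331-34187555, plus strand), all from RefSeq on GRCm38.p6 and written 5′ to 3′.
H2-K1: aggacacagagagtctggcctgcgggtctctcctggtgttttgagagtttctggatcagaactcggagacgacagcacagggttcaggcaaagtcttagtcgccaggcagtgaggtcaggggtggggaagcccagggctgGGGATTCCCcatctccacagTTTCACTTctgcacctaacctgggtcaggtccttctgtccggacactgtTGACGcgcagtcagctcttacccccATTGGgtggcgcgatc
H2-D1: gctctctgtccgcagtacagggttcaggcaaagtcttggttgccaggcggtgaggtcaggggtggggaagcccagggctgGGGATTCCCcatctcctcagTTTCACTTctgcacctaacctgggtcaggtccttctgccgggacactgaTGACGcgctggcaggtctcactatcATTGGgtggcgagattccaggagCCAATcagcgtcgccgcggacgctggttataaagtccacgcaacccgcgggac
B2m: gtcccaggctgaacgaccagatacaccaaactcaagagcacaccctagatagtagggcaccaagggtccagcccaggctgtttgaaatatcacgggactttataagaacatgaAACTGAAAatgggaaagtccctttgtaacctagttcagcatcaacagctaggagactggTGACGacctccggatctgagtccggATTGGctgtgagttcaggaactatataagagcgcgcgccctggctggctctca
Tap1 and Psmb9: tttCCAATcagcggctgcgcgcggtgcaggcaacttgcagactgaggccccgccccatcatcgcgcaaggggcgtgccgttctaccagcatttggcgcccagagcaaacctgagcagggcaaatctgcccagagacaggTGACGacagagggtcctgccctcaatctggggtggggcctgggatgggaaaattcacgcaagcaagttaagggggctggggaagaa

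The H2-K1 and H2-D1 windows share 4 matches in the same order. In H2-K1 the kappa B core begins 110 bases, the IRF element core 90 bases, the CRE motif 41 bases and the CCAAT box 16 bases before the start, and in H2-D1 the same 4 begin 170, 150, 101 and 76 bases before it. H2-D1 has a further CCAAT box 53 bases before the start. The matching stretch of H2-K1 lies past the end of its window, so it was not searched. The longest run of bases common to both windows was 47. The B2m window has an IRF element core 137 bases, a CRE motif 78 bases and a CCAAT box 53 bases before the start, and no kappa B core was matched in it. The window of Tap1 and Psmb9 holds a CRE motif and a CCAAT box. Over the 27025 mouse promoters in the table, the kappa B core was found in 0.311%, the IRF element core in 21.6%, the CRE motif in 17.9% and the CCAAT box in 34.5%. Among the 8 members with a promoter, 2 had the kappa B core, 3 the IRF element core, 5 the CRE motif and 6 the CCAAT box. Tap1 and Psmb9 are both counted for the CRE motif and the CCAAT box, which lie in the window that these genes share. A STAT (GAS) element (TTCNNNGAA) was also searched for, and no window shown held it. It was found in 7.18% of all promoters and in 1 of the 8 members (Psmb8). These matches are letters in a window and were not tested as binding sites.

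Levels between genes were compared as CPM per kilobase of exon. The length was all exon bases annotated for a gene, not that of a single transcript. The order of genes and the size of ratios between genes therefore also depend on the annotation. B2m was the most abundant member, with a mean of 2100 CPM per kilobase (range over the 8 livers, 1585 to 3586). H2-K1 followed at 517 (427 to 844) and H2-D1 at 283 (225 to 511). The 7 other members were far lower, from Tapbp at 22.3 (17.8 to 33.0) through Psmb10 at 14.2, Psmb8 at 9.56, Tap2 at 7.03, Tap1 at 6.36 and Psmb9 at 6.09 to Nlrc5 at 2.09 (1.49 to 4.46) CPM per kilobase. The ranges of neighbours in this order overlapped, except between B2m and H2-K1 and between H2-D1 and Tapbp. Psmb8 lay above Tap2 in 7 livers, Tap2 above Tap1 in 6 and Tap1 above Psmb9 in 5, so the order of these 4 genes was not the same in every liver. Among class I genes outside the members, H2-Q10, which encodes a class I chain secreted by the liver, had 861 CPM per kilobase (748 to 969), above H2-K1.

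The class I chains were highest in Control 159 and alike in the other livers. H2-K1, a heavy chain that presents peptides to cytotoxic T cells, had 1255, 2479, 1372 and 1349 CPM in Control 154, 159, 181 and 193. In Mc1r LKO 141, 156, 157 and 182 it had 1317, 1393, 1490 and 1494 CPM. All 4 Mc1r LKO livers lay inside the range of the control livers. The mean was 1614 ± 579 CPM (SD, n = 4) in control and 1424 ± 84.9 CPM in Mc1r LKO mice. The log2 fold change was -0.18 (SE 0.20, edgeR adjusted p = 0.908). Without Control 159 the log2 fold change was 0.11 with an unadjusted p of 0.287. H2-D1, the other classical heavy chain, had 582, 1317, 595 and 707 CPM in the control livers and 670, 665, 675 and 628 CPM in the Mc1r LKO livers, in the same order of mice. The 4 Mc1r LKO livers differed by at most 1.07-fold, and the control livers by 2.26-fold. The log2 fold change was -0.28 (SE 0.24, edgeR adjusted p = 0.882) and 0.078 without Control 159. B2m, the light chain that every class I molecule needs, had 1363, 3084, 1574 and 1685 CPM in control and 1514, 1720, 1659 and 1846 CPM in Mc1r LKO livers. Its log2 fold change was -0.19 (SE 0.23, edgeR adjusted p = 0.914) and 0.14 without Control 159. Within a liver the chains kept close to one ratio. H2-D1 per kilobase was between 0.479 and 0.605 of H2-K1, and B2m between 3.71 and 4.27 times H2-K1, in all 8 livers, Control 159 included. H2-K1 and H2-D1 are paralogs, and reads that fit both could be lost to the counting.

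**Figure D1:**
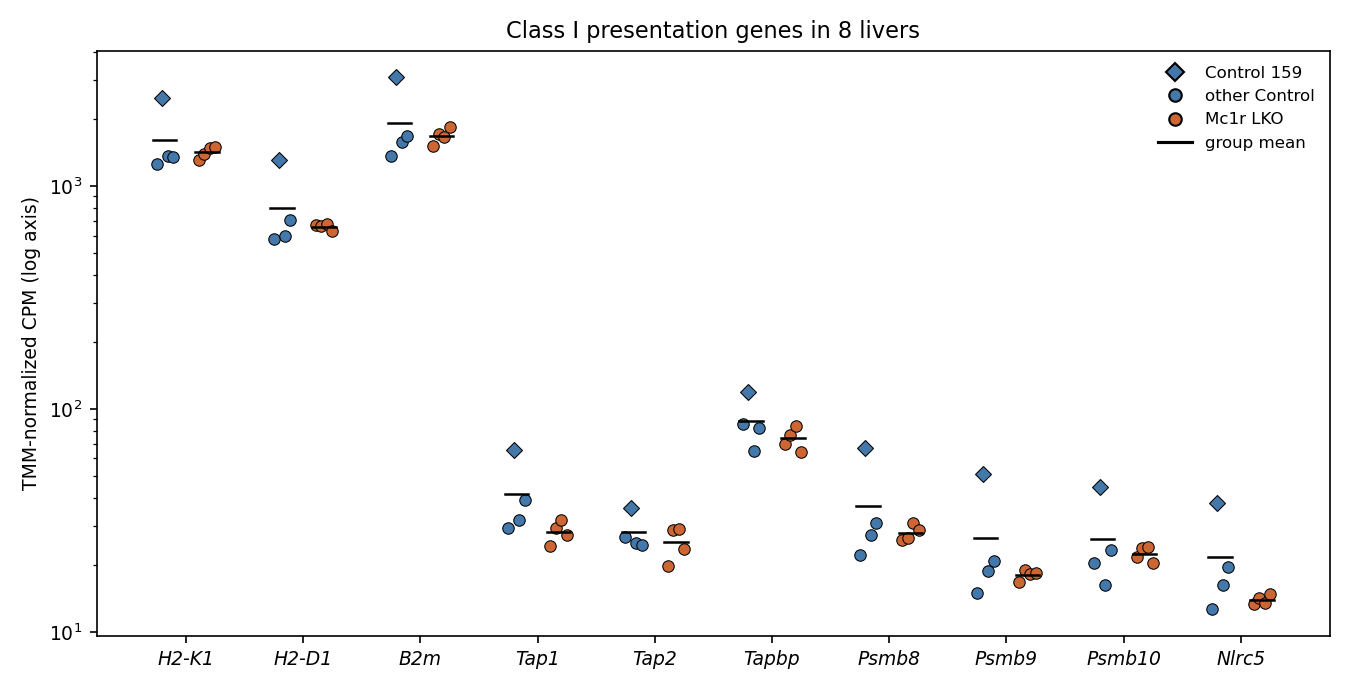
TMM-scaled CPM (vertical log axis) of each of the 10 members (along the horizontal axis) in the 4 control and 4 Mc1r LKO livers, with each point 1 liver, the diamond Control 159 and the bars the group means. Control 159 is the highest of the 8 livers for every member, for example at 3084 CPM for B2m and 37.8 CPM for Nlrc5.

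Of the transport and loading genes, Tap1 was the member that passed the unadjusted rule. Tap1, a subunit of the peptide transporter, had 29.2, 65.8, 31.8 and 39.0 CPM in control and 24.4, 29.4, 31.8 and 27.3 CPM in Mc1r LKO livers. Control 159 and Control 193 lay above every Mc1r LKO liver, and Control 154 and 181 lay among them. The mean was 41.5 ± 16.8 CPM in control and 28.2 ± 3.14 CPM in Mc1r LKO mice (log2 fold change -0.55, SE 0.23). The unadjusted p was 0.0383 and the adjusted p 0.734 (edgeR's quasi-likelihood test). Without Control 159 the log2 fold change was -0.23 and the unadjusted p 0.103. The call at the unadjusted p was also lost without Control 193 or Mc1r LKO 141, 156 or 182. Tap2, the partner subunit of Tap1 in the transporter, had 26.6, 35.8, 25.0 and 24.5 CPM in control and 19.8, 28.5, 29.0 and 23.5 CPM in Mc1r LKO livers. Control 159 stood less far above the other control livers for Tap2, at 1.41 times their mean, than for Tap1 at 1.97 times. The log2 fold change of Tap2 was -0.14 (SE 0.16, edgeR adjusted p = 0.907) and 0.0018 without Control 159. Tap1 per kilobase relative to Tap2 was 0.760, 1.27, 0.879 and 1.098 in the control livers and 0.849, 0.711, 0.757 and 0.802 in the Mc1r LKO livers. These ratios overlapped between the genotypes, and the comparison was chosen after the values were seen. Tapbp, which encodes tapasin, had 85.3, 119.8, 65.0 and 82.1 CPM in control and 69.9, 76.8, 84.3 and 64.5 CPM in Mc1r LKO livers. Its log2 fold change was -0.25 (SE 0.17, edgeR adjusted p = 0.843) and -0.061 without Control 159. Of the Tapbp exon bases, 4.11% are shared with Zbtb22 on the same strand, which no other member has with any gene.

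Of the members, the immunoproteasome subunits Psmb8 and Psmb9 were the highest in Control 159 relative to the other control livers. Psmb8, the chymotrypsin-like subunit, had 22.2, 66.9, 27.2 and 30.7 CPM in control and 25.8, 26.4, 30.7 and 28.7 CPM in Mc1r LKO livers. Control 159 was 2.50 times the mean of the other control livers, which lay on both sides of the Mc1r LKO livers. The log2 fold change was -0.38 (SE 0.29, edgeR adjusted p = 0.862) and 0.069 without Control 159. Psmb9, the caspase-like site's replacement, had 14.99, 51.3, 18.7 and 20.9 CPM in control and 16.7, 19.0, 18.3 and 18.3 CPM in Mc1r LKO livers. Control 159 was 2.82 times the mean of the other control livers, the highest such ratio of a member. The log2 fold change was -0.53 (SE 0.33, edgeR adjusted p = 0.830) and -0.0033 without Control 159. Psmb10, which replaces the trypsin-like subunit and lies on chromosome 8, had 20.4, 44.6, 16.2 and 23.3 CPM in control and 21.8, 23.7, 24.1 and 20.3 CPM in Mc1r LKO livers. Its log2 fold change was -0.20 (SE 0.26, edgeR adjusted p = 0.921) and 0.18 without Control 159. The Mc1r LKO livers differed by at most 1.19-fold for each of the 3 subunits.

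Each immunoproteasome subunit takes the place of 1 constitutive subunit in the particle, so the ratio of the pair within a liver describes the makeup of the proteasome transcripts without a scaling between livers. The size of a ratio also rests on the annotated exon bases, which were 3381 for Psmb8 and 899 for Psmb5. Comparing a ratio between livers does not rest on them. Psmb8 relative to Psmb5, per kilobase, was 0.191, 0.399, 0.164 and 0.187 in control and 0.0819, 0.127, 0.148 and 0.157 in Mc1r LKO livers. All 4 Mc1r LKO livers lay below all 4 control livers, with a mean difference of -0.82 on the log2 scale (exact permutation p = 0.0286, two-sided, which is the lowest that 4 against 4 livers allow). After Benjamini-Hochberg adjustment over the 3 ratios compared, p was 0.0857 in the exact test, which did not pass. Without Control 159 the difference was -0.53 and the exact p 0.0571, the smallest possible for 4 against 3. The values of Psmb5, the constitutive chymotrypsin-like subunit, enter this ratio together with those of Psmb8. Psmb5 had 30.9, 44.6, 44.1 and 43.7 CPM in control and 83.7, 55.4, 55.0 and 48.6 CPM in Mc1r LKO livers, so each Mc1r LKO liver lay above each control liver. Its log2 fold change was 0.57 (SE 0.18, unadjusted p = 0.00972, adjusted p = 0.734 in edgeR's test), and 0.62 without Control 159. That of Psmb8 was -0.38 with all livers and 0.069 without Control 159. Without that liver the lower ratio in Mc1r LKO mice thus lay in the higher Psmb5 and not in a lower Psmb8. Psmb9 relative to Psmb6 was 0.0699, 0.184, 0.0794 and 0.0935 in control and 0.0587, 0.0690, 0.0710 and 0.0675 in Mc1r LKO livers. Here the ratios of Control 154 and Mc1r LKO 157 overlapped. The difference was -0.57 on the log2 scale (exact permutation p = 0.0571, adjusted 0.0857), and -0.28 without Control 159 (exact p = 0.114). Psmb6 had 109.7, 142.9, 120.6 and 114.2 CPM in control and 145.2, 141.1, 131.6 and 139.1 CPM in Mc1r LKO livers. Without Control 159 the log2 fold change of Psmb6 was 0.29 (unadjusted p = 0.00823 in edgeR's test) and that of Psmb9 -0.0033. Without that liver the lower ratio thus lay in the higher Psmb6 and not in a lower Psmb9. Psmb10 relative to Psmb7 was 0.333, 0.705, 0.259 and 0.391 in control and 0.330, 0.400, 0.368 and 0.286 in Mc1r LKO livers. The genotypes overlapped, with a difference of -0.20 on the log2 scale (exact permutation p = 0.714, adjusted 0.714), and of 0.086 without Control 159 (exact p = 0.629). Without that liver the log2 fold change was 0.11 for Psmb7 and 0.18 for Psmb10.

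**Figure D2:**
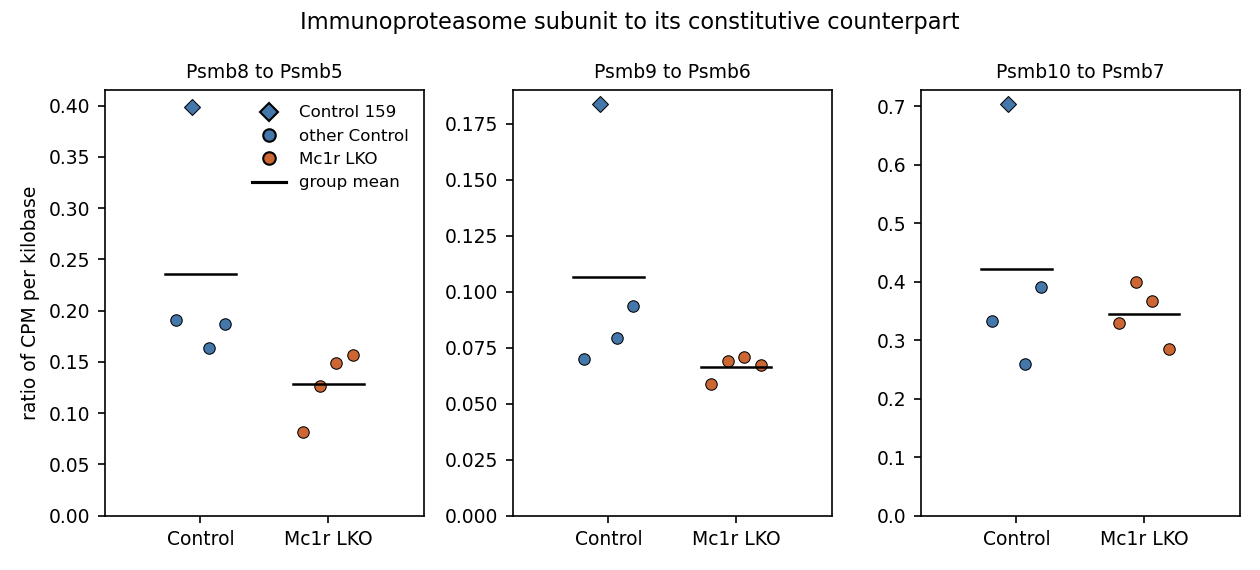
Ratio of each immunoproteasome subunit to the constitutive subunit it replaces (CPM per kilobase, linear axes from 0) in the 4 control and 4 Mc1r LKO livers, with each point 1 liver, the diamond Control 159 and the bars the group means. For Psmb8 to Psmb5 the Mc1r LKO livers end at 0.157 and the control livers begin at 0.164, while the genotypes overlap for the other pairs.

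Nlrc5, the transactivator of class I genes, was the least abundant member. It had 12.7, 37.8, 16.3 and 19.6 CPM in control and 13.3, 14.2, 13.5 and 14.7 CPM in Mc1r LKO livers. Control 154 lay below all 4 Mc1r LKO livers and the other 3 control livers lay above them. The mean was 21.6 ± 11.2 CPM in control and 13.9 ± 0.644 CPM in Mc1r LKO mice, with a log2 fold change of -0.61 (SE 0.28), the lowest of the members. The unadjusted p was 0.0546 and the adjusted p 0.745 (edgeR's quasi-likelihood test). Without Control 159 the log2 fold change was -0.21 and the unadjusted p 0.196. The 4 Mc1r LKO livers differed by 1.103-fold at most, against 2.99-fold among the control livers.

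**Figure D3:**
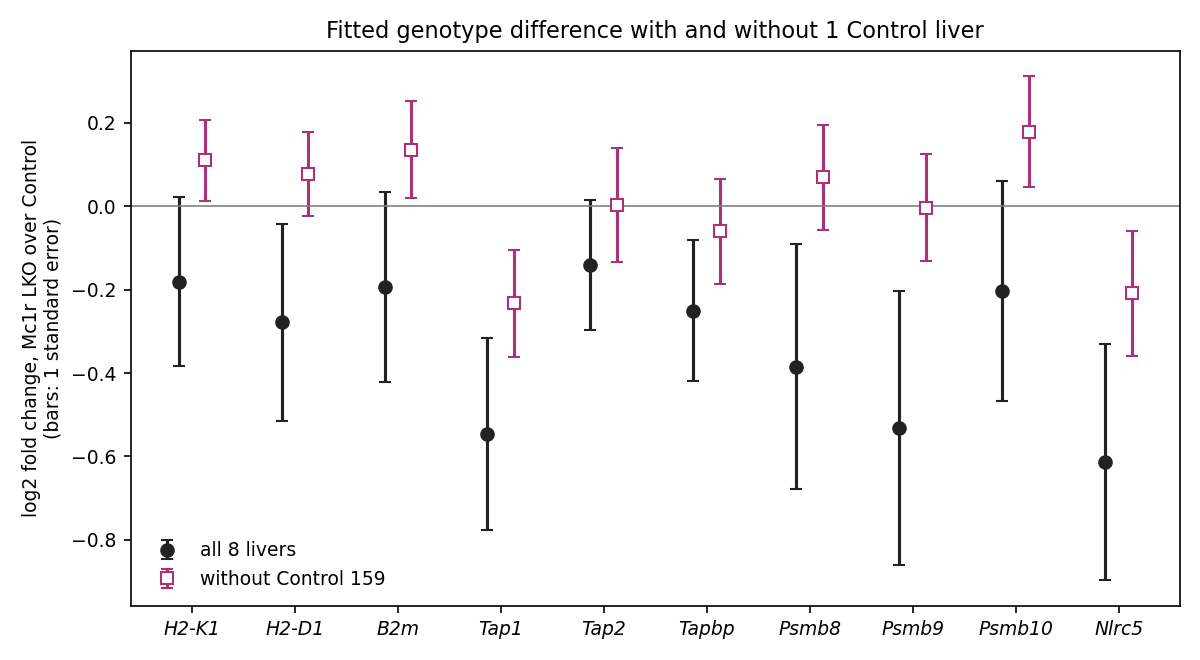
Log2 fold change of each member (Mc1r LKO over control, edgeR) with all 8 livers and without Control 159, with bars of 1 SE. With all livers the 10 values run from -0.61 (Nlrc5) to -0.14 (Tap2), and without Control 159 they run from -0.23 (Tap1) to 0.18 (Psmb10).

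The members shared a high value in Control 159 and lay closer to their own means in the other livers. The mean of the members' log2 CPM, each centred on its own mean, was 0.90 in Control 159, with single members between 0.45 and 1.31. It was -0.24, -0.18 and 0.026 in Control 154, 181 and 193. In Mc1r LKO 141, 156, 157 and 182 it was -0.24, -0.082, -0.038 and -0.14. Control 154 and 181 thus lay inside the range of the Mc1r LKO livers, and Control 193 lay above it. Control 154 (-0.2433) was just above Mc1r LKO 141 (-0.2438). Control 154 was the lowest of the 8 livers for 6 of 10 members, so the control group held both ends of the range for those genes. Over the 7 livers other than Control 159, the highest value of a member was between 1.19 times (H2-K1) and 1.60 times (Tap1) its lowest.

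Among 12349 other genes, the 8 with the profile most like the members' mean over the 8 livers were found by the root mean square difference of centred log2 CPM. They were Mpeg1 (0.0995), a pore-forming protein of macrophages, H2-T22 (0.101), a non-classical class I chain, Ly96 (0.112), the co-receptor of Toll-like receptor signalling, and Ctsc (0.112), a lysosomal protease that activates proteases of killer cells. Pla2g16 (0.114), a phospholipase, H2-Q6 (0.114), another non-classical class I chain, Bst2 (0.115), the interferon-induced tetherin, and Zfp688 (0.120), a zinc finger protein, followed. The members themselves differed from their mean by 0.067 to 0.22, and the mean profile had a root mean square of 0.35 around 0. In Control 159 these 8 genes were between 1.75 and 2.24 times the mean of the other control livers. Their log2 fold changes were between -0.41 and -0.15, and none passed the adjusted p. Without Control 159 they were between -0.13 (Ctsc) and 0.12 (Bst2). The genes were chosen for a profile that is highest in Control 159. Their high values in that liver and lower means in Mc1r LKO mice therefore follow largely from the choice.

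**Figure D4:**
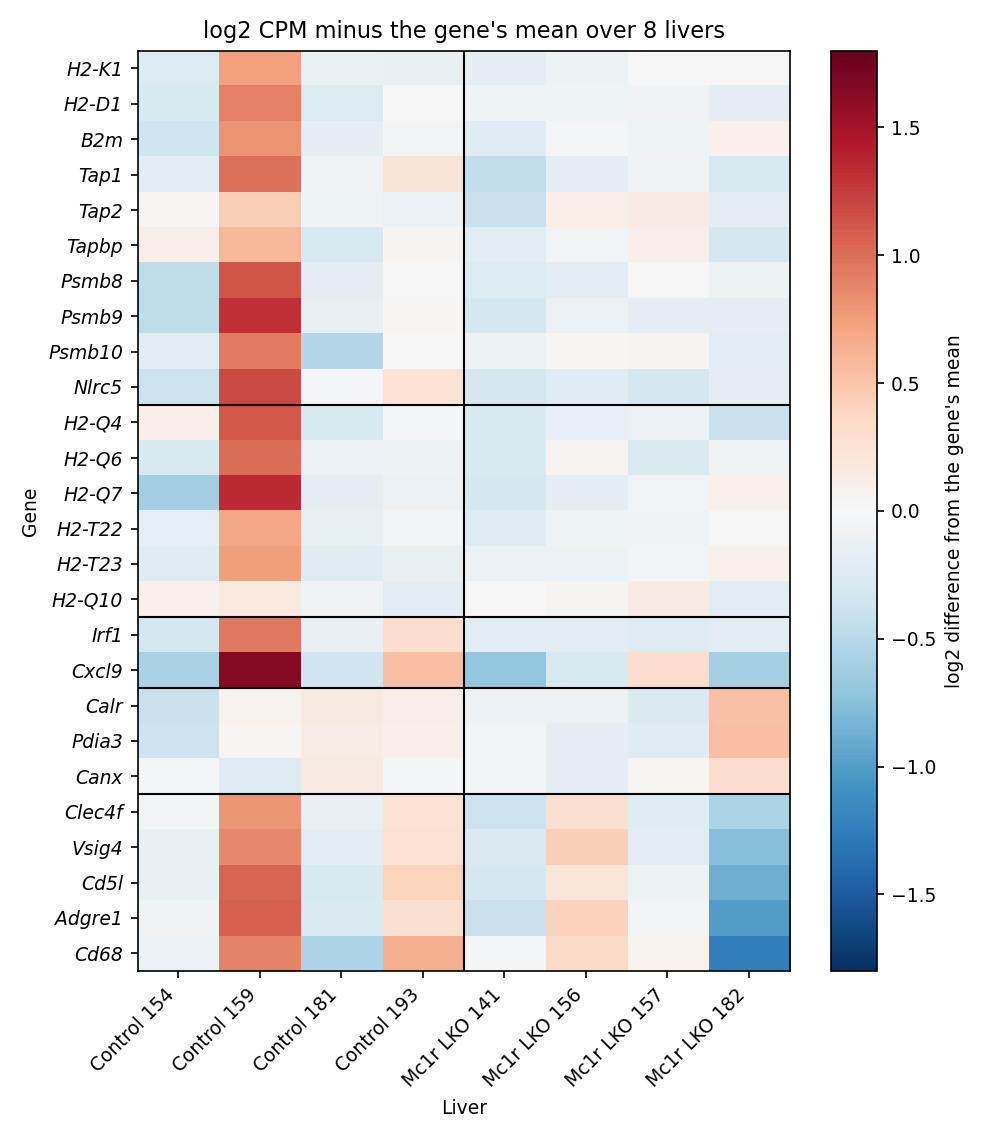
Heat map of log2 CPM minus each gene's mean over the 8 livers (colour, red above and blue below the mean), with livers as columns and, from top to bottom, the 10 members, other class I chains, interferon-linked genes, chaperones of peptide loading and markers of macrophages, the genes below the members being examples chosen with values known. Control 159 is red for the members, whose mean there is 0.90, and for the macrophage markers, while H2-Q10 and the chaperones are near their means there.

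The rest of the pathway was described from lists of other genes, by how many had a lower or higher mean in Mc1r LKO mice and how many passed the unadjusted rule. Of 18 other class I and class I-like genes, 16 were tested, with a lower mean in 12 and a higher mean in 4. The highest liver was Control 159 for 13 of these 16, and the median log2 fold change was -0.24, or 0.030 without Control 159. Those with the largest log2 fold changes in size were H2-Q2 (log2 fold change -0.96, edgeR adjusted p = 0.863), H2-M3, which presents formylated peptides (-0.56, adjusted p = 0.843), and H2-Q4 (-0.56, adjusted p = 0.752). Without Control 159 these were -0.46, -0.37 and -0.16, and H2-Q2 rested on counts between 1 and 18 per liver. Hfe, a class I-like regulator of iron uptake, was the gene called higher (log2 fold change 0.26, edgeR adjusted p = 0.734). The call was lost without Control 159 (0.21), Control 181 (0.22) or Mc1r LKO 141 (0.23). H2-Q10 was at 3919, 4212, 3581 and 3275 CPM in control and 3727, 3850, 4139 and 3254 CPM in Mc1r LKO livers, so Control 159 did not stand apart for this gene. H2-T3 had 0 counts in every liver.

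Of 15 other genes for peptide loading, transport and trimming, 14 were tested, and 1 had no match. The mean was lower for 6 and higher for 8, none passed the unadjusted rule, and the median log2 fold change was 0.018, or 0.012 without Control 159. The largest values in size were those of Hspa5, a chaperone of the endoplasmic reticulum (0.18), Lnpep, an aminopeptidase (-0.15), and Erap1, which trims peptides for class I (-0.12). Without Control 159 these were 0.10, -0.11 and -0.066, and Hspa5 turned to -0.18 without Mc1r LKO 182. Control 159 was the highest liver for 3 of these 14 genes, so this branch did not follow the members. Of 10 other proteasome genes, 2 had a lower and 8 a higher mean, with a median of 0.12, or 0.18 without Control 159. Psmb5 was the gene called higher by the unadjusted rule, and it passed that rule with each liver left out in turn. The assembly chaperones Psmg3 (0.25) and Psmg1 (0.21) had the next largest log2 fold changes (0.20 and 0.25 without Control 159), and Control 159 was the highest liver for 3 of 10.

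Of 14 genes for transcription of class I genes, 10 had a lower and 4 a higher mean, with a median log2 fold change of -0.092, or -0.043 without Control 159. Ciita, the regulator of MHC class II genes, was called lower by the unadjusted rule. It had 2.45, 11.4, 1.46 and 4.65 CPM in control and 2.42, 1.88, 2.02 and 0.869 CPM in Mc1r LKO livers. The value of Control 181 lay among those of the Mc1r LKO livers. The log2 fold change was -1.44 (edgeR adjusted p = 0.734) and -0.67 without Control 159. The call was lost without that liver, and also without Control 193 or Mc1r LKO 156, 157 or 182. Irf1, an activator induced by interferon, had 24.5, 59.1, 27.7 and 37.9 CPM in control and 26.5, 26.7, 26.1 and 26.7 CPM in Mc1r LKO livers, a log2 fold change of -0.48 (edgeR adjusted p = 0.760) and -0.17 without Control 159. Rfxap, a subunit of the RFX complex, had a log2 fold change of 0.30, or 0.27 without Control 159.

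Of 15 genes for interferon-gamma signalling, 13 were tested, and Ifng and Socs1 were too low to pass the filter. The mean was lower for 11 and higher for 2, none passed the unadjusted rule, and the median log2 fold change was -0.17, or -0.093 without Control 159. The chemokines Cxcl9 and Cxcl10, both induced by interferon, had log2 fold changes of -0.82 (edgeR adjusted p = 0.786) and -0.55 (adjusted p = 0.846), and of -0.20 and -0.44 without Control 159. Control 159 was the highest liver for 8 of the 13 genes. Of 13 receptors of class I and genes of the effector cells, 2 passed the filter. Lilrb4a, an inhibitory receptor of myeloid cells, was called lower (log2 fold change -0.71, edgeR adjusted p = 0.740, and -0.46 without Control 159). The call was lost without Control 159 or 193 or without Mc1r LKO 141, 157 or 182. Pirb, another inhibitory receptor, had a log2 fold change of -0.58, and of -0.11 without Control 159.

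Markers of other cell types in the liver moved with the members in Control 159. In bulk tissue, fewer cells of a type and less RNA per cell cannot be told apart. The 7 markers of Kupffer cells and macrophages were all tested, and all 7 were highest in Control 159. Their summed level was 543 CPM in Control 159, between 236 and 354 CPM in the other control livers and between 164 and 352 CPM in Mc1r LKO livers. All 7 had a lower mean in Mc1r LKO mice, none passed the unadjusted rule, and their median log2 fold change was -0.43, or -0.17 without Control 159. Clec4f, the defining Kupffer cell marker, had 94.2, 170.2, 89.3 and 117.2 CPM in control and 74.7, 119.4, 84.2 and 66.0 CPM in Mc1r LKO livers. The sum of 7 markers of natural killer cells was 7.25 CPM in Control 159, 0.730 to 2.32 CPM in the other control livers and 0.307 to 1.87 CPM in Mc1r LKO livers, and 0 of these 7 passed the filter. The sum of B cell markers was 5.21 CPM in Control 159, 1.25 to 3.99 CPM in the other control livers and 1.07 to 2.35 CPM in Mc1r LKO livers. The sums of T cell, monocyte and dendritic cell, endothelial, stellate cell and cholangiocyte markers in Control 159 lay inside the range of the other 7 livers. No listed marker was at 0 in all 8 livers. The part of these cells in the levels of the members was not tested.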

How the data were processed

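RNA was extracted from whole liver and the authors deposited 1 table of counts per mouse, which holds the whole-number count of read pairs on each gene with no normalization. According to the submitters' processing notes and the table headers, reads were trimmed with Trim Galore 0.6.6, aligned with STAR 2.7.6a and counted by strand (option 2) with featureCounts 2.0.1 on the Ensembl 102 annotation of GRCm38 (the methods write GRCh38). The headers name no option that counts reads with several alignments, so reads common to paralogs may be missing from the counts. Symbols were found for 55141 of 55487 gene identifiers.

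Starting from those counts, low genes were removed with filterByExpr (minimum count 10, minimum total 15), scaled by TMM and tested with the quasi-likelihood test of edgeR 4.0.16 (limma 3.58.1, R 4.3.3), with genotype as the only term and p-values were adjusted by Benjamini-Hochberg over 13400 genes. The fit was checked on simulated counts. The methods do not name the test used by the authors. Log2 CPM values had a prior count of 2. Ratios of 2 subunits were compared by exact permutation tests (scipy 1.17.1). Alternatives were other scalings, filters and thresholds, DESeq2 1.42.0, limma-voom, thinning to the lowest total and leaving out each liver. The list medians and ranges without Control 159, and the listed genes with each liver left out, were added after seeing the data.

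The members and all gene lists were chosen with earlier results of these data known. All 10 members are named, and of the listed pathway genes those past the unadjusted rule, the 3 with the largest absolute log2 fold change in each list and the constitutive subunits of the ratios. A gene that this rule names is not reported here. Other genes named for their values were chosen after those were seen. The likeness to the members' mean profile was the root mean square difference of centred log2 CPM, and the 8 closest genes with a mean CPM of at least 1 were named. Groups came from the labels, no batch is named there, and the closest pair of livers of one genotype had a chi-square of 11.0 per degree of freedom, and each liver was counted as 1 sample.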

Additional observations from a re-analysis of the deposited data

Results flagged for a closer look

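Control 159 lay far from the other 3 control livers in 3 values. H2-K1 had 2479 CPM there, Psmb9 had 51.3 CPM, and the ratio of Psmb8 to Psmb5 per kilobase was 0.399. In each case the gap to the next control liver took most of the range of the group, past the 95% critical value of Dixon's test. Of 32 groups of 4 values checked, 3 were found, where chance at 1 in 20 gives 1.6, and all 3 were values of the same liver. The members share their libraries, so the 32 groups are not independent.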

How the results depend on the processing

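No member passed the adjusted p in any of the 17 alternatives fitted. The number called lower at the unadjusted p was 1 (Tap1). It became 2 with library size alone, with a filter of 1 count in any liver, with DESeq2 and after thinning to the lowest total, and 0 with limma-voom, and it lay between 0 and 3 when 1 liver was left out. It was 0 without Control 159, Control 193 or Mc1r LKO 141, 156 or 182, and 3 without Control 154 or 181. The causes were not tested. Without Control 159 the log2 fold change turned to 0.11 for H2-K1, 0.078 for H2-D1, 0.14 for B2m, 0.0018 for Tap2, 0.069 for Psmb8 and 0.18 for Psmb10, and that of the Psmb10 to Psmb7 ratio to 0.086, while the other ends of their ranges with 1 liver left out were -0.28, -0.40, -0.32, -0.21, -0.56, -0.37 and -0.39, in the same order. Tap1, Tapbp, Psmb9 and Nlrc5 kept a log2 fold change below 0 in every alternative. The median over the members was between -0.30 and -0.20 with other scalings, filters and tests, and between -0.38 and 0.036 when 1 liver was left out. The adjusted p was 0.471 to 0.820 for Tap1 and 0.522 to 0.820 for Nlrc5 over other scalings, filters and tests. Library size alone moved the median of all genes to -0.056. DESeq2 called 17 genes of all those tested at the adjusted p. No paired analysis was possible because the groups share no replicate number. The lowest count behind a member's value was 193, and each group had 4 livers.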

Other observations

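Mc1r LKO 182 had the lowest sum of macrophage markers of the 8 livers, at 164 CPM, and of natural killer cell markers, at 0.307 CPM. Its sums of endothelial (128 CPM), stellate cell (192 CPM), monocyte and dendritic cell (4.14 CPM) and B cell markers (1.07 CPM) were also the lowest. Its sums of hepatocyte markers, at 102410 CPM, and of T cell markers, at 4.34 CPM, were the highest. Its sum of cholangiocyte markers, at 12.9 CPM, was below only that of Mc1r LKO 141 (16.5 CPM). Mc1r LKO 182 was the lowest liver for 1 of the 10 members (Tapbp). Among the 7 livers other than Control 159 it was the highest for 2 members (H2-K1 and B2m). The same liver had the highest summed level of the other genes for peptide loading, transport and trimming, at 7173 CPM against 4512 to 5923 CPM in the other 7. Some genes of that list were highest there, and others were not, such as Ero1l and Tapbpl. Hspa5 had 1892 CPM in Mc1r LKO 182 and 816 to 1353 CPM in the other livers, Calr 1226 CPM against 643 to 951 CPM, and Pdia3 638 CPM against 338 to 482 CPM. Tapbp, the member that works beside Calr and Pdia3 in peptide loading, had 64.5 CPM in this liver. These values were picked after they were seen, and the difference of 1 liver from the others was not tested.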
